A study of Mus musculus with 9 samples.

Results

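Germinal center B cells carrying 1 floxed Foxo1 allele (HET, FOXO1f/+ with Cg1-Cre) were compared with cells carrying none (WT, FOXO1+/+ with Cg1-Cre) on 3 arrays each, 6 of the 9 arrays of the study, chosen by the genotype that each label gives. The other 3 arrays (KO) came from FOXO1f/f mice with Cg1-Cre, and are used here for the spread and for values side by side. All 3 genotypes carried the Cre transgene, so WT cells are Cre controls with no floxed allele. The mice were 10 wk old and received sheep red blood cells on day 0 and day 5, and spleens were taken on day 12. B cells enriched from the spleen were sorted as B220hi, CD95hi and PNAhi, and amplified RNA was hybridized to Affymetrix mouse genome arrays. The label of each sample gives 1 animal, while the design text of the series speaks of splenic cell pools, so p-values measure the spread between arrays as labelled. The sort did not select cells by recombination of the floxed allele, and the labels name no check of it.

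FOXO1 belongs to the forkhead transcription factors. Phosphorylation by AKT, downstream of PI3K, keeps it in the cytoplasm, and when this signaling is low it acts on its target genes in the nucleus. In the germinal center it is most active in the dark zone, where B cells divide and mutate their antibody genes, and it maintains the dark zone program there. Cg1-Cre is expressed from the locus of the IgG1 constant region, which B cells transcribe once they are activated. Whether losing 1 of the Foxo1 copies changes the program is the question that the HET against WT comparison addresses.

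The values are MAS5 signals, which are probe set intensities on a linear scale. Differences are log2 differences after adding an offset of 2.09, the 10th percentile of all signals. Probe sets at or above the array median on at least 3 of the 9 arrays were kept, and the brightest of them stood for its gene, which left 10331 genes. The array medians were 42.9 to 44.8 in WT and 44.0 to 45.0 in HET, against 47.4 to 48.0 in KO. The root mean square log2 distance between arrays was 0.304 to 0.345 within WT, 0.333 to 0.379 within HET and 0.295 to 0.396 between a HET and a WT array, so the distances overlapped. Xist, the RNA of the inactive X chromosome, was bright on 2 WT, 1 HET and 2 KO arrays and dim on the others, and the sexes were therefore not balanced between HET and WT.

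Markers of B cells and of the germinal center were bright in both genotypes. The summed signal of the 16 B cell lineage genes on the array was 99152 to 110390 in WT and 103420 to 105510 in HET. That of 24 germinal center identity genes was 108520 to 115040 in WT and 110370 to 112920 in HET. Of 17 T cell markers, 9 stayed under the median signal of each of the 6 arrays, among them Cd3d, Cd3g and Cd4, with summed signals of 3388 to 3687 in WT and 3153 to 3316 in HET. Cd3e was under it on 5 of the 6 arrays and read 48.9 on HET replicate 3, whose median was 45.0. Cd8a was above the array median on WT replicate 3 (57.68) and on HET replicates 2 (52.11) and 3 (66.45). Most of the summed signal was Cd2, which B cells also carry, at 2812 to 3151 in WT and 2664 to 2694 in HET. The sums therefore do not measure T cells alone.

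Foxo1 itself was lower on every HET array than on every WT array. The brightest of its 4 kept probe sets read 5432, 5300 and 5616 on the WT arrays, 3632, 3581 and 3480 on the HET arrays and 983, 1392 and 727 on the KO arrays. The 3 genotypes did not overlap, and the HET mean was 65.4% of the WT mean. The log2 difference between HET and WT was -0.61 (SE 0.16, 95% interval -0.96 to -0.26, limma, unadjusted p = 0.00245), and it did not pass Benjamini-Hochberg adjustment over all genes (adjusted p = 0.919). An exact two-sided permutation test over the 6 arrays gave p = 0.1, the smallest it can give with 3 against 3. In bulk RNA, fewer cells with the transcript and less transcript per cell cannot be told apart. The KO arrays, which enter the shared estimate of spread, had an SD of 335 for this probe set, against 159 in WT and 77.9 in HET. With the 6 HET and WT arrays alone Foxo1 passed (limma, adjusted p = 9.51e-04).

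Each of the other bright Foxo1 probe sets was further down in HET. The next probe set read 4008, 3824 and 3762 in WT and 2430, 2301 and 2208 in HET, which was 59.8% of WT (log2 -0.74, SE 0.11). The third read 834, 829 and 774 in WT and 480, 431 and 444 in HET, or 55.5% of WT (log2 -0.85, SE 0.12). When every kept probe set was tested on its own, both reached an adjusted p of 0.0920 (limma). The dimmest probe set went the other way, with 44.0, 53.1 and 55.6 in WT and 65.7, 91.3 and 78.4 in HET (log2 0.60, SE 0.24), so averaging the 4 probe sets gave -0.40. The labels do not place the probe sets relative to the floxed segment.

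**Figure D1:**
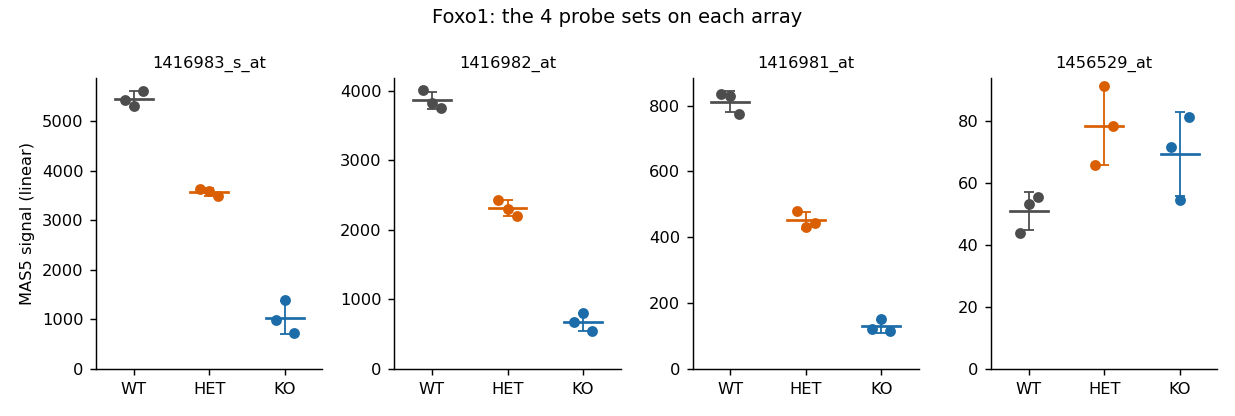
Signal of the 4 Foxo1 probe sets (MAS5, linear axis from 0) on each array of WT, HET and KO; points are arrays, horizontal lines are means and bars are ± 1 SD (n = 3). In the 3 brighter probe sets the HET arrays lie between WT and KO with no overlap, and in the dimmest probe set (44.0 to 91.3 in WT and HET) HET lies above WT.

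The 250 bases before the Foxo1 start in RefSeq (GRCm38.p6, chr3:52268087-52268336, plus strand) are printed to show the sequence in front of the transcript that was at 65.4% of WT. Beside it stand the same windows of Pik3cg (chr12:32208471-32208720, minus strand) and Ccni (chr5:93206496-93206745, minus strand), which are the genes among the 20 with the strongest differences that hold the FOXO core motif GTAAACA or its reverse complement TGTTTAC, marked in capitals. Pik3cg has 2 such windows, and the first that holds the motif is printed. All printed windows run 5′ to 3′ along the gene.
Foxo1: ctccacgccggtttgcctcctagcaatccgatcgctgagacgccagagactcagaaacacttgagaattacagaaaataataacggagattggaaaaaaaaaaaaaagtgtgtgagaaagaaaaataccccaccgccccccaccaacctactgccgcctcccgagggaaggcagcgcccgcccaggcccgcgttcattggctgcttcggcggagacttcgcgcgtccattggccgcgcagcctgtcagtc
Pik3cg: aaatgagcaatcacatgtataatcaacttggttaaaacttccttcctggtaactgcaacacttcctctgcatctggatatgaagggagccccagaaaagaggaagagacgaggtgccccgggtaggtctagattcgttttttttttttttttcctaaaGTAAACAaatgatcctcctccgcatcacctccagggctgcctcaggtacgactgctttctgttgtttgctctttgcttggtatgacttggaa
Ccni: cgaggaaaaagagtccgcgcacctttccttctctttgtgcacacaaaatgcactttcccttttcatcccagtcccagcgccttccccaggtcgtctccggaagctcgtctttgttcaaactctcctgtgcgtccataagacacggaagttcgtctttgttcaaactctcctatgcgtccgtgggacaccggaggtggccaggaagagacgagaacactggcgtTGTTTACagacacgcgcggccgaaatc
The motif, searched on both strands, stood in 1040 of 32851 RefSeq windows of this length (3.17%) and in at least 1 window of 956 of 27025 genes (3.54%). Of the 20 genes with the strongest differences, 17 had a window and 2 of them held the motif. A match is a description of these letters and not of binding.

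One gene passed the test between HET and WT, which is 0.00968% of the 10331 genes tested. It was Gm34303, which RefSeq lists as a pseudogene and as the entry next to Foxo1 along chromosome 3. Its signal was 58.9, 69.9 and 75.6 on the WT arrays, 2139, 1710 and 2020 on the HET arrays and 2393, 3200 and 3360 on the KO arrays. Every HET array was far above every WT array, and KO was higher again. The log2 difference between HET and WT was 4.80 (SE 0.14, 95% interval 4.50 to 5.11, limma, adjusted p = 9.44e-10), and that between KO and WT was 5.40. It passed in all 25 fits made, the 24 alternative settings included. A single probe set represents this gene, and its sequence was not used here.

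All other genes missed the threshold, and the intervals show how large a difference they still allow. The 95% interval of the HET minus WT difference lay wholly within 1.5-fold for 8276 genes (80.1%) and within 2-fold for 9798 genes (94.8%). These intervals are per gene and are not adjusted over genes. The median difference over all genes was 0.0023, and the SD of the differences was 0.20 in HET against WT and 0.38 in KO against WT. An unadjusted p under 0.05 was reached by 432 genes (4.18%), 228 higher in HET (2.21%) and 204 lower (1.97%). The HET and WT arrays did not overlap for 1015 genes (9.82%), 511 of them higher in HET (4.95%) and 504 lower (4.88%). In the same fit KO differed from WT in 1232 genes (11.9%), 630 higher (6.1%) and 602 lower (5.83%), and from HET in 929 genes (8.99%), 471 higher (4.56%) and 458 lower (4.43%). The KO and HET comparisons share arrays, so these counts stand side by side and are not independent.

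Precision rose with brightness, and the width of the intervals followed it. When genes were split into 5 equal groups by mean signal, the share with an interval within 1.5-fold was 23.2% in the dimmest group, then 82.8%, 96.3%, 98.5% and 99.7% in the brightest. The SD of the HET minus WT differences fell along the same groups, from 0.34 through 0.20, 0.19 and 0.10 to 0.06. Genes with an unadjusted p under 0.05 made up 5.08% of the dimmest group and 2.42% of the brightest. In KO against WT, by contrast, the share of genes passing the adjusted threshold was 10.4% in the dimmest group and 12.7% in the brightest. Of the 50 genes that differed by over 1 log2 unit between HET and WT, 35 were in the dimmest group. A change of 1.5-fold could therefore be bounded for most genes of the upper 4 groups and for few genes of the lowest.

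**Figure D2:**
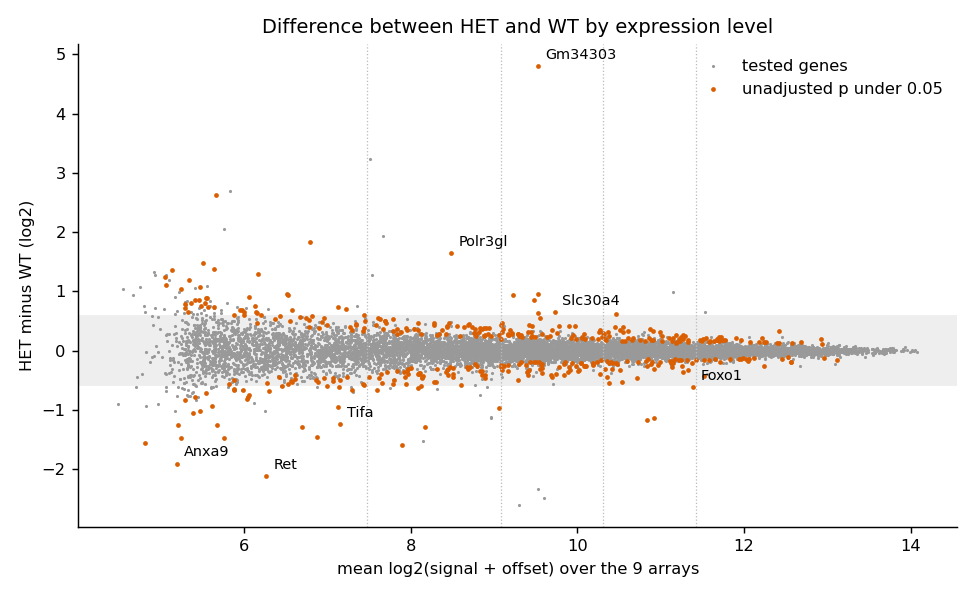
HET minus WT log2 difference (vertical axis) against mean log2 signal over the 9 arrays (horizontal axis) for the 10331 genes; orange points have an unadjusted p under 0.05, the grey band marks 1.5-fold, and dotted lines separate the 5 groups by signal. The cloud narrows from an SD of 0.34 in the dimmest group to 0.06 in the brightest, and Gm34303 stands alone at 4.80.

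Of the genes that were higher in HET without passing the test, the zinc transporter gene Slc30a4 came closest. It read 728, 660 and 596 in WT, 1075, 1051 and 982 in HET and 905, 805 and 954 in KO. The HET arrays lay above all WT and all KO arrays (log2 difference from WT 0.65, SE 0.10, limma, adjusted p = 0.0759, between 0.0389 and 0.443 over the alternatives). Smpdl3a, which encodes a phosphodiesterase related to acid sphingomyelinase, read 430, 561 and 468 in WT and 948, 701 and 636 in HET (log2 0.63, SE 0.16). Pik3cg, the catalytic p110γ subunit of PI3K, read 1988, 1861 and 1900 in WT, 2235, 2308 and 2405 in HET and 3177, 2671 and 2714 in KO (log2 0.27, SE 0.07). In both, KO lay above HET, and the KO against WT difference passed the test (log2 1.17 for Smpdl3a and 0.57 for Pik3cg). Bcl9, a cofactor of beta-catenin on chromosome 3, had a HET minus WT difference of 0.62 and a KO minus WT difference of 0.80 that passed. For Cdk13, a kinase of the RNA polymerase II tail, HET was 0.42 above WT while KO was 0.07 above it. Other Cdk13 probe sets had HET minus WT differences of 0.19, 0.05 and -0.01. The remaining genes among the 10 strongest higher in HET were Polr3gl, Slc22a15, Fahd2a, Ccni and Col20a1, of which Ccni, a cyclin, had the smallest difference (0.20) and Polr3gl the largest (1.64). Col20a1, a collagen gene, stayed under the median signal of each WT array, which gives at least a 1.48-fold higher level in HET. None of these passed in HET against WT, and Slc22a15 was at -0.0053 when its probe sets were averaged.

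Among the genes lower in HET, several had their values in the order WT, HET, KO. Tifa, an adaptor of TRAF6 in NF-kB signaling that belongs to the dark zone list and lies on chromosome 3 like Foxo1, read 307, 325 and 299 in WT, 102, 177 and 124 in HET and 50.9, 91.8 and 64.0 in KO. No HET array reached a WT array, and the difference was -1.23 (SE 0.24, limma, adjusted p = 0.278). Noct, the circadian phosphatase nocturnin, also on chromosome 3, read 2399, 2089 and 2361 in WT, 1743, 1507 and 1735 in HET and 1175, 1157 and 1448 in KO (HET minus WT -0.46, SE 0.10). Smco4, a small membrane protein gene, read 1902, 2138 and 1910 in WT, 1594, 1585 and 1583 in HET and 1049, 943 and 934 in KO (HET minus WT -0.32, SE 0.07). Hpgds, a prostaglandin D synthase, read 454, 496 and 418 in WT, 353, 315 and 329 in HET and 137, 143 and 147 in KO (HET minus WT -0.45, SE 0.12). All 4 fell in KO against WT (log2 -2.18, -0.86, -1.02 and -1.66 in this order), and none passed in HET against WT. Myzap (HET minus WT -0.67) and the receptor tyrosine kinase gene Ret (-2.12) were also lower in HET and fell in KO (-1.26 and -2.77). Nt5e, the ectoenzyme CD73 of memory B cells, was 0.41 lower in HET, at 1130 to 1239 against 1467 to 1628 in WT, and its log2 difference was -1.88 in KO, which passed. A630023P12Rik, named after its values were seen, read 837, 594 and 580 in WT and 226, 214 and 213 in HET (-1.59, adjusted p = 0.233 in limma, between 0.00114 and 0.734 over the alternatives). It passed with the 6 HET and WT arrays alone and without KO replicate 3.

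Other genes on chromosome 3 differed in HET from both WT and KO. Dph5, an enzyme of diphthamide synthesis, read 2283, 2144 and 2578 in WT, 494, 1344 and 1642 in HET and 2639, 2651 and 2301 in KO (HET minus WT -1.18, SE 0.31). HET was below every WT and KO array, and HET replicate 1 was the lowest. The other kept Dph5 probe set had a smaller HET minus WT difference of -0.33 (SE 0.11). Polr3gl, a subunit of RNA polymerase III, read 251, 225 and 202 in WT, 1220, 493 and 586 in HET and 413, 198 and 277 in KO (HET minus WT 1.64, SE 0.30). Dclre1b, the telomere nuclease Apollo, read 1417, 1498 and 1546 in WT, 849, 1028 and 1214 in HET and 1606, 1757 and 1354 in KO, while its other kept probe set had a difference of 0.06. The histone gene H2bc21 (-0.53) and 6330549D23Rik (-1.28) were below both groups as well, and Slc22a15 (0.41) and A930005H10Rik (0.85) were above both. The annexin gene Anxa9 read 49.6, 46.5 and 50.6 in WT and stayed under the median signal of each HET array (7.18, 19.0 and 10.9), at least 1.10-fold lower. A930005H10Rik came as close to the threshold as Slc30a4 (limma, adjusted p = 0.0759), but without probe sets of shared sequence its difference was -0.13. Both Rik genes were named after their values were seen.

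On chromosome 3, 43 of 485 genes had an unadjusted p under 0.05 in HET against WT (8.87%), against 387 of 9822 genes on the other chromosomes (3.94%), whose shares ran from 1.94% to 5.81%. The 50 genes with the smallest p included 18 of chromosome 3. HET lay outside both other genotypes, with no overlap, in 24 chromosome 3 genes (4.95%) and in 2.35% of the genes elsewhere, where single chromosomes ran from 1.46% to 3.43%. In KO against WT, chromosome 3 was near the others, with 13.2% of its genes called against 11.9% of all genes. Along the chromosome, in blocks of 50 tested genes, the number with an unadjusted p under 0.05 was 1, 6, 2, 0, 2, 9, 6, 9 and 5, and 3 in the last 35 genes. Foxo1 was the 80th gene, in the second block, so the blocks with most of these genes lay at some distance from it. Of the tested genes next to Foxo1, Nhlrc3 read 408, 421 and 362 in WT and 437, 482 and 499 in HET, higher by 0.25 (unadjusted p = 0.0290, limma). The noncoding gene Gm30173 was dim, with 24.6, 25.0 and 17.5 in WT, 21, 50.8 and 72.4 in HET and 77.0, 96.6 and 102 in KO. Setd7 (-0.15) and Mgst2 (-0.27) were lower by values that did not reach an unadjusted p of 0.05. The labels give no strain for the mice or for the floxed allele, so a difference of allele and one of linked chromosome 3 sequence cannot be told apart here.

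**Figure D3:**
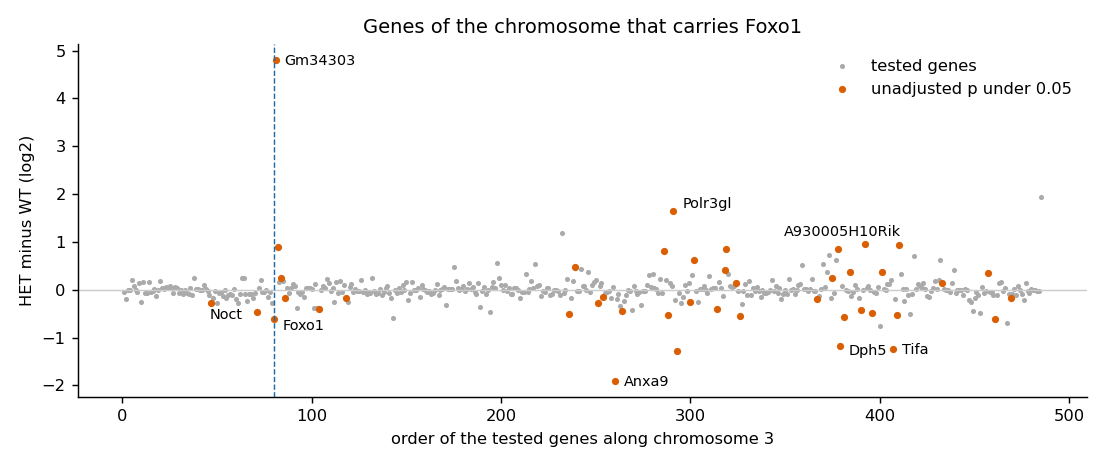
HET minus WT log2 difference of the 485 tested genes of chromosome 3 in their order along it (horizontal axis, order only); orange points have an unadjusted p under 0.05 and the dashed line marks Foxo1. The 43 orange points include Gm34303 beside Foxo1 and lie mostly in the second block and from the sixth block on, on both sides of 0.

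Where HET stood off the middle between the other genotypes, it was mostly near WT. HET departed from the midpoint of WT and KO in 103 genes (0.997%), 66 above it (0.639%) and 37 below (0.358%). In 98 of the 103 the HET mean was nearer to WT than to KO, in 5 it was nearer to KO, and in 78 the HET minus WT interval lay within 1.5-fold. The HET mean lay between the WT and KO means in 32, beyond WT in 67 and beyond KO in 4, and a list chosen by distance from the midpoint favours genes outside the range. Of the 103, 92 were also called in KO against WT. This list came from the same arrays as the comparison of KO with WT, so the counts describe it and do not test it. The 103 genes fell to 31 with eBayes without trend and also without HET replicate 2, to 50 without WT replicate 2, to 45 without HET replicate 1 and to 37 without HET replicate 3.

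Bach2, a transcriptional repressor that restrains plasma cell differentiation, read 7650, 7148 and 8104 in WT, 7987, 7917 and 7876 in HET and 3397, 3902 and 3657 in KO. HET and WT overlapped (difference 0.06, interval -0.08 to 0.19), while the KO minus WT difference was -1.06, which passed. Cxcr4, the receptor that draws B cells to the dark zone, read 7626, 7445 and 8384 in WT and 8082, 7844 and 7630 in HET (0.01, interval -0.11 to 0.12), against 5160, 5350 and 5036 in KO. Eif2ak3, the ER stress kinase PERK, read 3468, 3435 and 3322 in WT and 3514, 3364 and 3345 in HET (interval -0.13 to 0.13), and fell by 1.10 in KO. Pafah1b3, a platelet-activating factor acetylhydrolase subunit, had an interval of -0.16 to 0.13 in HET and fell by 1.29 in KO. For these 4 genes the interval of the brightest probe set lay within 1.5-fold in either direction. Bach2, Eif2ak3 and Pafah1b3 were among the largest departures from the midpoint on these same arrays, and Bach2 was also on the fixed list. That choice favours HET values near WT, so their intervals describe the genes and do not test absence. Other Eif2ak3 probe sets were at 0.13 (SE 0.16) and 0.32 (SE 0.22). Gcsam, an inhibitor of germinal center B cell motility, had a wider HET minus WT interval of -0.15 to 0.36 and fell by 1.36 in KO. In the other direction, Id2, an inhibitor of E proteins, rose by 1.25 in KO while HET read 596, 657 and 648 against 600, 770 and 672 in WT. Mgll, the monoglyceride lipase, rose by 1.88 in KO and was at -0.18 in HET. Il10 was dim in WT (20.0 to 25.6) and HET (11.1 to 21.6) and bright in KO (142 to 219). Nhsl1 was below the array median in WT and HET and read 281 to 472 in KO.

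Most of the 103 genes, 67, had a HET mean on the far side of WT from KO, Bach2 (0.06) and Id2 (-0.10) among them. In Gcnt3 and Fcer2a HET was above WT on every array. The mucin glycosyltransferase gene Gcnt3 read 1347, 1208 and 1020 in WT, 1556, 1748 and 1444 in HET and 336, 398 and 349 in KO. HET exceeded WT by 0.41 (interval 0.16 to 0.66, limma, adjusted p = 0.919), while KO fell by 1.71. Fcer2a, the low-affinity IgE receptor CD23, read 2107, 1957 and 2274 in WT, 2444, 2370 and 2523 in HET and 1224, 1217 and 1284 in KO, again with HET highest (0.21, interval 0.06 to 0.36) and a fall of 0.76 in KO that passed. Neither HET difference passed the test.

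**Figure D4:**
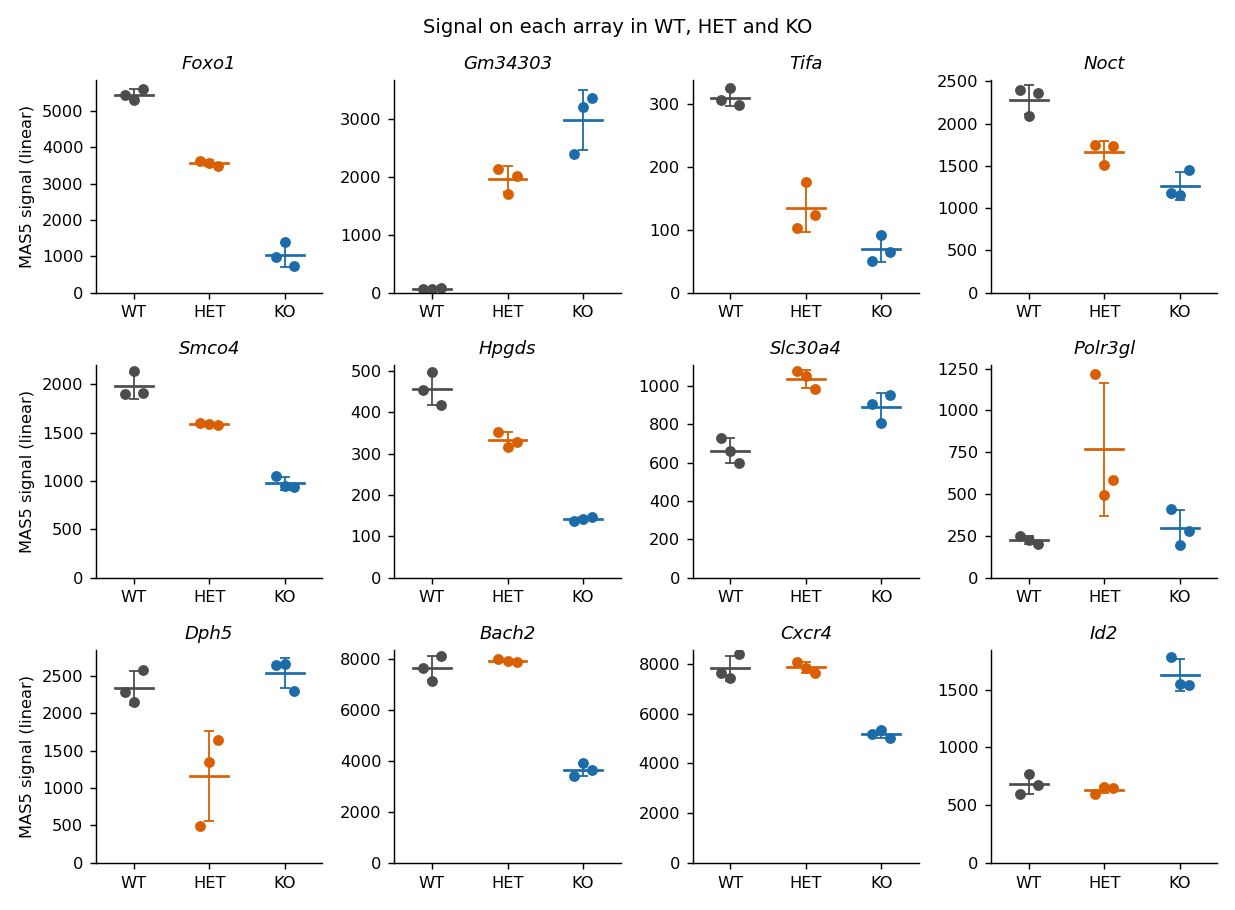
Signal (MAS5, linear axes from 0) of 12 genes on each array; points are arrays, lines are means and bars are ± 1 SD (n = 3). Foxo1, Tifa, Noct, Smco4 and Hpgds step down from WT through HET to KO, Gm34303 steps up, Slc30a4, Polr3gl and Dph5 are farthest from WT in HET, and Bach2, Cxcr4 and Id2 passed the test in KO against WT and not in HET against WT.

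Across functions, no gene of the 37 function lists passed between HET and WT in limma. These lists hold 665 tested genes, of which 13 were higher and 16 lower at an unadjusted p under 0.05, or 4.36%, near the 4.18% of all genes. The interval lay within 1.5-fold for 569 of them (85.6%, against 80.1% of all genes) and within 2-fold for 641. List medians ran from -0.17 (B-1 B cell genes) to 0.14 (naive and follicular genes). In KO against WT, 144 of the 665 genes were called, where 11.9% of all genes were.

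In the FOXO family, Foxo3 read 1794, 1859 and 1980 in WT and 2246, 2051 and 1896 in HET (0.13, interval -0.03 to 0.29), and Foxo1 was the member with an unadjusted p under 0.05. Of 21 tested genes reported as FOXO1 targets in lymphocytes, 2 were higher (Btg1 and Ccng2, both antiproliferative) and 2 lower (Bcl2l11, the proapoptotic BIM, and Rictor, a subunit of mTORC2) at an unadjusted p under 0.05, which is 19% of the list against 4.18% of all genes. The other 3 Rictor probe sets lay between -0.10 and 0.03. The median of the list was 0.01 in HET and -0.12 in KO, where 7 members fell and 1 rose, against 11.9% of all genes called. Bcl2l11 read 3284, 3153 and 2850 in WT, 2675, 2478 and 2872 in HET and 2332, 2220 and 2216 in KO, with a HET minus WT difference of -0.21 (SE 0.07). HET and WT overlapped. Insr, the insulin receptor gene, was at -0.25 in HET and fell by 1.01 in KO, and Cdkn1b, the CDK inhibitor p27, was at -0.03 and fell by 0.49. Klf2 (0.14) and S1pr1 (0.63), which govern exit from lymphoid tissue, were dim and had intervals that crossed 0 (-0.25 to 0.54 and -0.13 to 1.39).

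The germinal center zone lists had medians near 0 in HET. Of 18 dark zone genes, 2 were lower at an unadjusted p under 0.05 (Foxo1 and Tifa, 11.1% against 4.18% of all genes), 14 had an interval within 1.5-fold, and the median was -0.01, against -0.20 in KO, where 8 fell and 2 rose (11.9% of all genes were called in KO). Of 25 light zone genes, Fcer2a was higher and Batf lower (8% of the list), 22 had an interval within 1.5-fold, and the median was 0.02. Batf, the AP-1 factor needed for class switching, read 466, 616 and 570 in WT, 426, 478 and 314 in HET and 221, 286 and 164 in KO (HET minus WT -0.45, interval -0.89 to -0.01, unadjusted p = 0.0465 in limma, KO minus WT -1.32). Cd86, the costimulatory ligand CD86, was at 0.03 in HET and rose by 0.41 in KO. Bcl6, the master repressor of the germinal center, read 8670, 8120 and 10699 in WT and 8924, 9213 and 9063 in HET (-0.01, interval -0.18 to 0.17). Of 23 germinal center identity genes, Myb had a difference of -0.18 (2972 to 3170 against 3415 to 3540), and 21 intervals lay within 1.5-fold.

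Lists of other B cell fates had KO medians on both sides of 0. For the KO counts below, 6.1% of all genes were called higher in KO against WT and 5.83% lower. Of 14 marginal zone genes, 11 rose in KO (median 0.72) and the HET median was 0.02, with 8 intervals within 1.5-fold. The complement receptor gene Cr2 was at 0.15 in HET (2936 to 3450 against 2748 to 3015) and rose by 0.74 in KO. Of 16 plasma cell genes, 8 rose in KO (median 0.36) and the HET median was -0.0030. In that list Slpi, a secreted protease inhibitor, read 4418, 3422 and 3979 in WT, 5314, 4522 and 5076 in HET and 8000, 8066 and 9411 in KO (HET minus WT 0.34, SE 0.09). Tnfrsf13b, the receptor TACI, read 2682, 2691 and 2841 in WT and 3233, 2922 and 3131 in HET (0.18, SE 0.06), and rose by 0.59 in KO. Against these, Prdm1, the regulator of plasma cell differentiation BLIMP1, read 191, 229 and 193 in WT, 160, 176 and 150 in HET and 310, 492 and 335 in KO, so HET was below WT (-0.33) and KO above. Irf4 was at -0.12 in HET and rose by 0.61 in KO. The B-1 and naive and follicular lists, with the lowest and highest HET medians of all function lists (-0.17 over 6 genes and 0.14 over 11), had KO medians of -0.94 and -0.23, with 4 and 5 members falling in KO. The differences of HET from WT in these lists were not tested against those of KO.

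Signaling, growth and metabolism lists had HET medians between -0.15 and 0.09. All 34 mitosis genes had an interval within 1.5-fold (median -0.02), and 8 of them fell in KO, where 5.83% of all genes fell. All 28 ribosome biogenesis genes and all 26 class switching, hypermutation and mismatch repair genes also had such an interval. In that last list Xrcc6, the end-joining protein Ku70, was lower in HET by value (-0.21). Of 34 replication genes, Tyms, Ccne2 and Mcm3 (the last named after its value was seen) were lower at an unadjusted p under 0.05, and 33 intervals lay within 1.5-fold. Mcm3 had no settled direction, with -0.14 (SE 0.06) in its brightest probe set. Its other probe sets were at 0.21 (SE 0.09), 0.06 (SE 0.11), 0.0053 (SE 0.08) and -0.18 (SE 0.13). Tyms, thymidylate synthase, read 208, 198 and 224 in WT and 148, 159 and 169 in HET (-0.40, SE 0.15). Of 29 B cell receptor signaling genes none had an unadjusted p under 0.05 in HET by its brightest probe set. The lowest of them was Nfatc1, at -0.19 (SE 0.09). Other Nfatc1 probe sets were at -0.61 (SE 0.14), -0.47 (SE 0.20), -0.41 (SE 0.22) and 0.01 (SE 0.12). Of the 29 genes, 9 rose and 2 fell in KO, where 6.1% of all genes rose and 5.83% fell. Among 34 PI3K, AKT and mTOR genes 1 was higher (Pik3cg) and 1 lower (Rictor, 869 to 918 against 1076 to 1182). For oxidative phosphorylation 35 of 36 intervals lay within 1.5-fold. Such an interval was held by 80.1% of all genes, and by 96.3% in the middle group by signal and 99.7% in the brightest. The list counts were not compared with genes of equal brightness.

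Metabolic lists with the highest HET median were those of cholesterol and fatty acid synthesis (0.09, 23 genes) and of glycolysis (0.06, 20 genes). In the first, the fatty acid elongase gene Elovl6, on chromosome 3, read 422, 401 and 1149 in WT and 1025, 1133 and 1182 in HET. WT replicate 3 was at the HET level, and with all arrays the difference was 0.94 (limma, adjusted p = 0.998). Without that array it became 1.43 (limma, adjusted p = 0.0101), a fit that drops the array that differed and so does not test the gene. Other Elovl6 probe sets were at 0.04 and 0.69. In glycolysis, Pdk1, which limits pyruvate entry to the TCA cycle, was higher in HET by 0.28. Bmf, a proapoptotic BCL2 family gene, was higher by 0.53 in its brightest probe set and at 0.0061 in another. Bcl2l11 of the same family was lower by value (-0.21), and neither gene passed. The NF-kB regulator Bcl3 (-0.34) and the interferon response gene Usp18 (-0.54) were lower at an unadjusted p under 0.05. The antioxidant factor Nfe2l2 had no settled direction, with -0.26 in its brighter probe set, 0.55 in the other and 0.14 when they were averaged. The interferon list had a median of -0.15, and an SD of its median between arrays of the same genotype of 0.32. Cd200, a coinhibitory ligand, read 1236, 1374 and 1171 in WT and 1580, 1488 and 1611 in HET (0.31, SE 0.09), with a rise of 0.43 in KO.

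**Figure D5:**
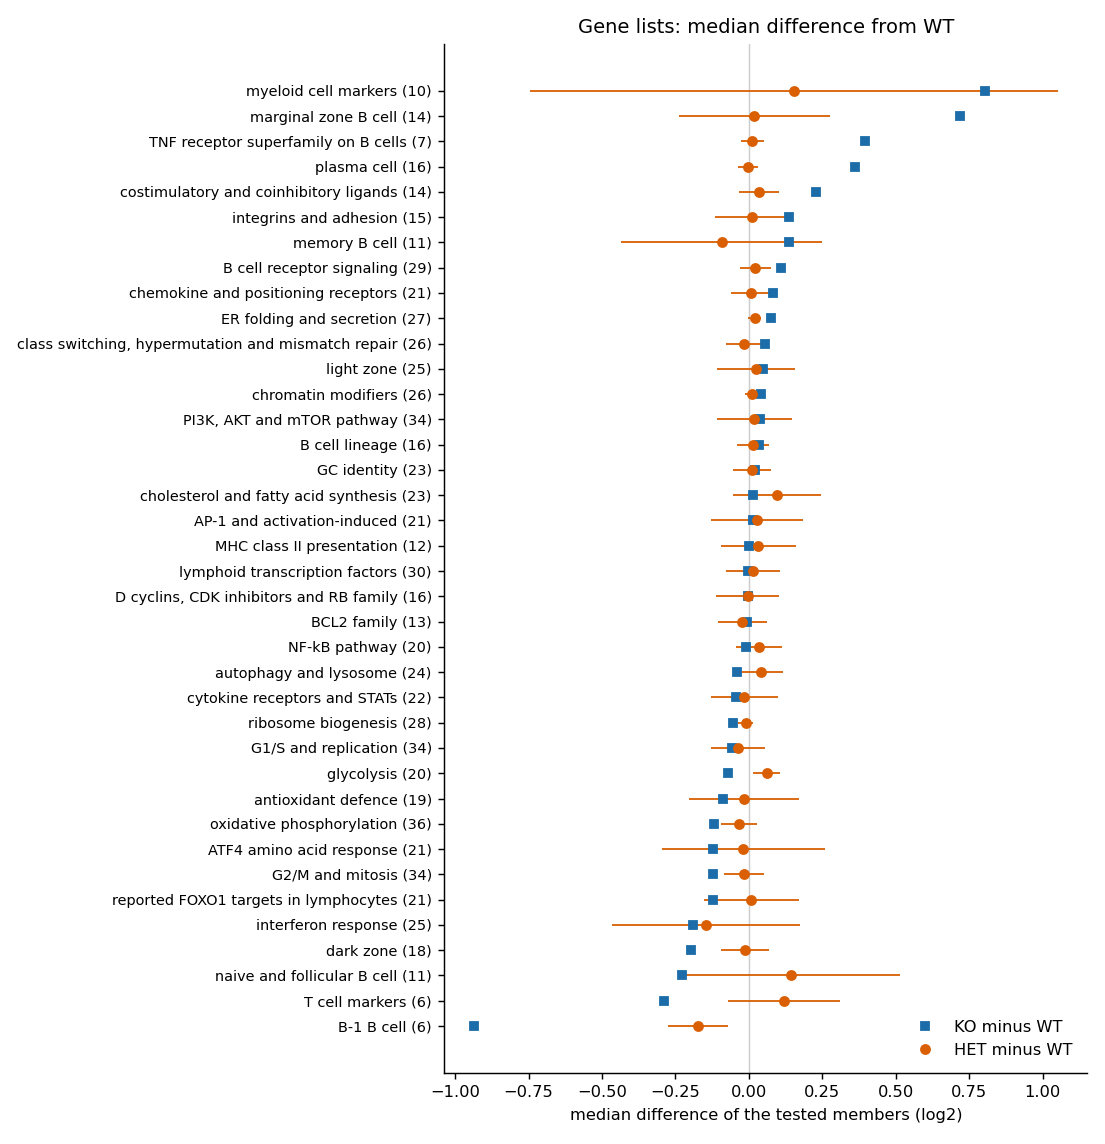
Median log2 difference from WT of the tested members of each list (number in brackets) for HET (circles, with the SD of the list median between arrays of one genotype as a bar) and KO (squares). HET medians of the function lists lie between -0.17 and 0.14, while KO medians reach 0.72 for marginal zone genes and -0.94 for B-1 genes; HET and KO share the WT arrays.

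Signals of other cell types were in part not equal between the genotypes. The summed signal of 23 myeloid markers was 1522 to 2536 in WT, 1995 to 3596 in HET and 3670 to 5024 in KO, with 12 of the 23 below the array median on all HET and WT arrays. HET replicate 3 was the highest of the HET and WT arrays. There the brightest probe set of Csf1r, the receptor of macrophage growth factor, read 489. It read 77.6 and 77.3 on the other HET arrays and 17.1 to 115 in WT. The HET minus WT difference of this Csf1r probe set was 1.83 (SE 0.70), and those of the others were 0.69 (SE 0.42) and 0.19 (SE 0.42). The summed signal of 11 dendritic cell markers was 1454 to 1574 in WT and 1697 to 1771 in HET. Of these 11 markers, 6 were below the array median on all HET and WT arrays and 4 were tested. The summed signal of 12 stromal and endothelial markers was 2393 to 2752 in WT and 2902 to 3030 in HET. Most of this sum was Fcer2a, also a light zone list gene, at 1957 to 2274 in WT and 2370 to 2523 in HET. The sum therefore does not measure stromal cells apart from B cells. Cd2, a T cell marker that B cells also carry, was at -0.13 in HET and fell by 1.16 in KO. The part of other cells in the differences above was not tested. Within arrays of bright Xist and within arrays of dim Xist the HET minus WT values of Foxo1 were -0.65 and -0.59, and those of Gm34303 were 4.76 and 4.97. Of the 20 genes with the strongest differences, Smpdl3a varied most beside Col20a1 and Ret, with 0.31 in the first set and 0.92 in the second.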

How the data were processed

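The arrays hold total RNA of sorted mouse germinal center B cells, 3 arrays for each of 3 genotypes, grouped by the genotype label. The deposited table gives 1 linear signal intensity per probe set and array, computed by the authors with MAS5 per the submitters' processing notes (version not given in the sources used here). Of its 45101 probe sets, 34945 have 1 gene symbol in the platform annotation, 932 have several and 9160 none, and 64 are control probe sets; those without exactly 1 symbol and the controls were left out. Symbols were updated through RefSeq (GRCm38.p6), with 34741 matched.

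The log2 of the signal plus 2.09 was fitted with limma 3.58.1 in R 4.3.3 (lmFit, eBayes with trend) over all 9 arrays, and p-values were two-sided and adjusted by Benjamini-Hochberg over the 10331 genes, with a threshold of 0.05. The choice of comparison and of gene lists was made with earlier results of these data known. Named genes were those of a fixed list, any gene called, the 10 strongest each way by moderated t among genes whose arrays did not overlap (without sex chromosome genes, Gm and Rik symbols and antibody segments), up to 2 genes per list with the smallest p, the largest KO changes, the 4 largest departures each way from the midpoint, and 5 tested genes on each side of Foxo1. Genes outside these rules are marked in the text. Of 853 listed genes, 691 were tested. The number of arrays limits the precision. The script was tested on simulated data.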

Additional observations from a re-analysis of the deposited data

How the results depend on the processing

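The HET against WT comparison was repeated under 24 alternative settings, 9 of which left out 1 array. Called genes numbered 3 with the 6 HET and WT arrays alone, 3 with robust eBayes, 3 with array weights, and 1 to 3 without 1 array; the other settings called Gm34303 alone. Foxo1 passed with the 6 arrays alone (-0.61, limma, adjusted p = 9.51e-04), and ranged from -0.63 to -0.59 without 1 array. Slc30a4 and A930005H10Rik passed with robust eBayes and with array weights. Unadjusted p under 0.05 was reached by 831 genes with no filter on dim probe sets (18193 tested), by 776 when every kept probe set was tested (19479) and by 372 to 481 without 1 array. With every probe set tested, 14542 intervals lay within 1.5-fold and 18364 within 2-fold; without 1 array these were 7794 to 8321 and 9550 to 9800. Departures from the midpoint numbered 31 with eBayes without trend and 31 to 109 without 1 array.

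Directions turned for some genes, none of which passed in any fit except A930005H10Rik. When probe sets were averaged per gene these were Bcl6 (0.031), Slc22a15 (-0.0053), Nfe2l2 (0.14), Eif2ak3 (0.15) and Mgll (0.0037). Bcl6 also turned with quantile normalization (0.0065), array weights (0.030) and the Xist block (0.010), Pafah1b3 with array weights (0.00074) and the Xist block (0.0019), and Eif2ak3 with median centring (0.00056). A930005H10Rik was at -0.13 and Mcm3 at 0.0053 without probe sets of shared sequence. Without 1 array, Cxcr4 ranged from -0.027 to 0.059, Gcsam from -0.067 to 0.203, Pafah1b3 from -0.074 to 0.028, Eif2ak3 from -0.023 to 0.013, Bcl6 from -0.087 to 0.112, Cdkn1b from -0.107 to 0.061 and Klf2 from -0.010 to 0.276. The cause was not tested. No paired analysis was possible because the titles give each animal its own number and no number is shared between genotypes. With 3 arrays a group, most genes of the dimmest group had intervals too wide to bound a difference of 1.5-fold.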

Other observations

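Slc25a17, which encodes a peroxisomal carrier, and Ccdc134, both on chromosome 15 and named after their values were seen, split the HET arrays. Slc25a17 read 471, 496 and 361 in WT, 1169, 459 and 1144 in HET and 993, 1151 and 1103 in KO. Ccdc134 read 1200, 1150 and 1209 in WT, 1668, 1186 and 1748 in HET and 1751, 1731 and 1714 in KO. In both genes HET replicate 2 lay at the WT level and HET replicates 1 and 3 at the KO level. With all arrays the HET minus WT differences were 0.95 and 0.35 and did not pass (limma, adjusted p = 0.919 and 0.998). Without HET replicate 2 they were 1.40 and 0.52 and passed (limma, adjusted p = 0.00152 and 0.0493). The array left out is the one that differed in both genes, so that fit describes the split and does not test it.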
